A study of Homo sapiens with 16 samples.

Results

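PER1, FKBP5, KLF9, MT2A, MT1X and SCNN1A are genes that glucocorticoids induce in many epithelial cells, and here they were examined for regions bound by AIB1, the steroid receptor coactivator encoded by NCOA3. The members were 6 named genes at 5 loci, MT2A and MT1X being counted as 1, and the regions were all rows of the deposited lists within 200 kb of a member's canonical transcription start site (TSS). The rule found 7 different regions, called clusters here, of 897 different clusters in the 4 lists together. The 6 members are among 18864 protein-coding genes on the 20 chromosomes that hold clusters, and the 7 clusters also lie within 200 kb of other genes. The genes were chosen by the position of clusters in these same lists, so presence near them is a description and carries no test.

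The study compared 2 human mammary epithelial lines, MCF10A (immortalised breast cells that do not form tumours) and MCFDCIS (a relative of MCF10A used as a model of ductal carcinoma in situ), each as parental cells and as a D4 counterpart. The series title connects D4 with AIB1D4, a form of AIB1, and the labels do not say how the D4 lines were made or whether each is 1 clone. Each of the 4 groups had 3 AIB1 ChIP samples and 1 input sample, all labelled passages 10-15, and all groups grew in a medium with insulin, hydrocortisone, EGF, cholera toxin and horse serum. Hydrocortisone, a glucocorticoid, was therefore present in every group, and none of the groups was a hormone-free control. For each group a single list was deposited, of 490 clusters (MCF10A-named parental), 138 (MCF10A-named D4), 651 (MCFDCIS-named parental) and 99 (MCFDCIS-named D4). The sample descriptions cite the list that carries the other line's name, so a list is called by the name on it and is assigned to no line. With no value per sample, no replicate error can be given for any value, and sequencing depth is unknown.

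The glucocorticoid receptor waits in the cytoplasm in a complex with HSP90 and co-chaperones, moves to the nucleus when hormone binds, and attaches to glucocorticoid response elements (GREs), which are inverted repeats of a short half-site parted by a spacer of 3 bases. At such sites it recruits coactivators of the steroid receptor coactivator family, of which AIB1 is a member beside NCOA1 and NCOA2. FKBP5 is a co-chaperone that lowers the receptor's hormone binding, PER1 is a repressor in the circadian clock, KLF9 is a zinc finger transcription factor, MT2A and MT1X are metal-binding metallothioneins, and SCNN1A is a subunit of the epithelial sodium channel.

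Each of the 7 clusters had a GRE-like sequence at or beside it. The rule used positions and not motifs, but the frequency of GREs in these lists was already known when the genes were chosen. The sequences are shown because the GRE was the one motif, of those sought, that all 7 held. They are the plus strand of GRCh37 around each cluster, 5′ to 3′, and capitals mark a match to the GRE consensus (GNACA and TGTNC with any 3 bases between them) or to the AP-1 site TGACTCA on either strand. The windows are chr17:8057646-8057865 (PER1), chr6:35695856-35696005, chr6:35699681-35699830 and chr6:35569731-35569880 (FKBP5, in the order of the lines), chr9:73034931-73035080 (KLF9), chr16:56641196-56641365 (MT2A and MT1X) and chr12:6485456-6485605 (SCNN1A).
PER1: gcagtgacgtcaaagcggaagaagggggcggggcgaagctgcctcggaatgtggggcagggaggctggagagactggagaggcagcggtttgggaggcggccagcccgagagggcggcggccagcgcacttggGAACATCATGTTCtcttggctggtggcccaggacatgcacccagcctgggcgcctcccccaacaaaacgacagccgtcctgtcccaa
FKBP5, nearer upstream cluster: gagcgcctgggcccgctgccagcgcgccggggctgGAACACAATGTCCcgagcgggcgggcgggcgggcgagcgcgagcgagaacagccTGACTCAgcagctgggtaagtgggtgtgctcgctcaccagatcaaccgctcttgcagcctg
FKBP5, farther upstream cluster: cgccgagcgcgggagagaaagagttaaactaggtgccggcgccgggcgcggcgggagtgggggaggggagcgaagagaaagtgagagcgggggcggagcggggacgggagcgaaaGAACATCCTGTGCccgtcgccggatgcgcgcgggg
FKBP5, intron 5 cluster: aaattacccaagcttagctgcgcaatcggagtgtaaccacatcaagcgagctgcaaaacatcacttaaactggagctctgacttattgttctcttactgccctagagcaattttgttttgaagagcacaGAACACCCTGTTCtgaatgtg
KLF9: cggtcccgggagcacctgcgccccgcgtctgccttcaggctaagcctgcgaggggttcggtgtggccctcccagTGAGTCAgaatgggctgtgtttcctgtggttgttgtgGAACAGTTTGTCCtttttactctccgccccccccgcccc
MT2A and MT1X: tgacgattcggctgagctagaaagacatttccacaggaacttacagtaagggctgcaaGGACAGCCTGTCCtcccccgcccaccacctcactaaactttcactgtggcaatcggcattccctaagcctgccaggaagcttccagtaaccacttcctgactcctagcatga
SCNN1A: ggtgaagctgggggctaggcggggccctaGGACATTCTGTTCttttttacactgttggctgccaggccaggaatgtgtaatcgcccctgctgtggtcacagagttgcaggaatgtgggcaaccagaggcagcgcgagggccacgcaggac

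All 7 clusters held the GRE consensus within the central 500 bp. Among all clusters it was in 49 of 490 (10.0%, exact 95% interval 7.49 to 13) of the MCF10A-named parental list and in 58 of 651 (8.91%, 6.83 to 11.4) of the parental list named MCFDCIS. In the D4 lists it was in 3 of 138 (2.17%, MCF10A-named) and in 8 of 99 (8.08%, MCFDCIS-named). Of 14 windows of the same width placed 5 kb to either side of the 7 clusters, 0 held it. Of 35116 RefSeq promoters (GRCh38.p14) 0.390% did, in a narrower window of 300 bases. In the central 300 bp of the clusters 7 of 7 held it. The lists' shares are for 500 bp, so the promoter share is not set against them. The 3 FKBP5 clusters belong to 1 locus, so the 7 clusters are 5 loci and not 7 independent regions. The earlier finding that GREs are frequent in these lists was known when the genes were chosen.

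The matches lay close to the cluster centres, between 20 bp (MT2A) and 61 bp (FKBP5, the cluster downstream of its TSS) away. In the parental lists 42 of 49 and 47 of 58 GRE-holding clusters likewise had the match within 62 bp of the centre, so the closeness was not particular to the 7. Only at PER1 and MT2A was the match wholly inside the cluster. At the nearer upstream FKBP5 cluster it reached across the deposited end, and at the other 4 clusters, of 10 or 60 bp, it lay outside the deposited ends.

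**Figure D1:**
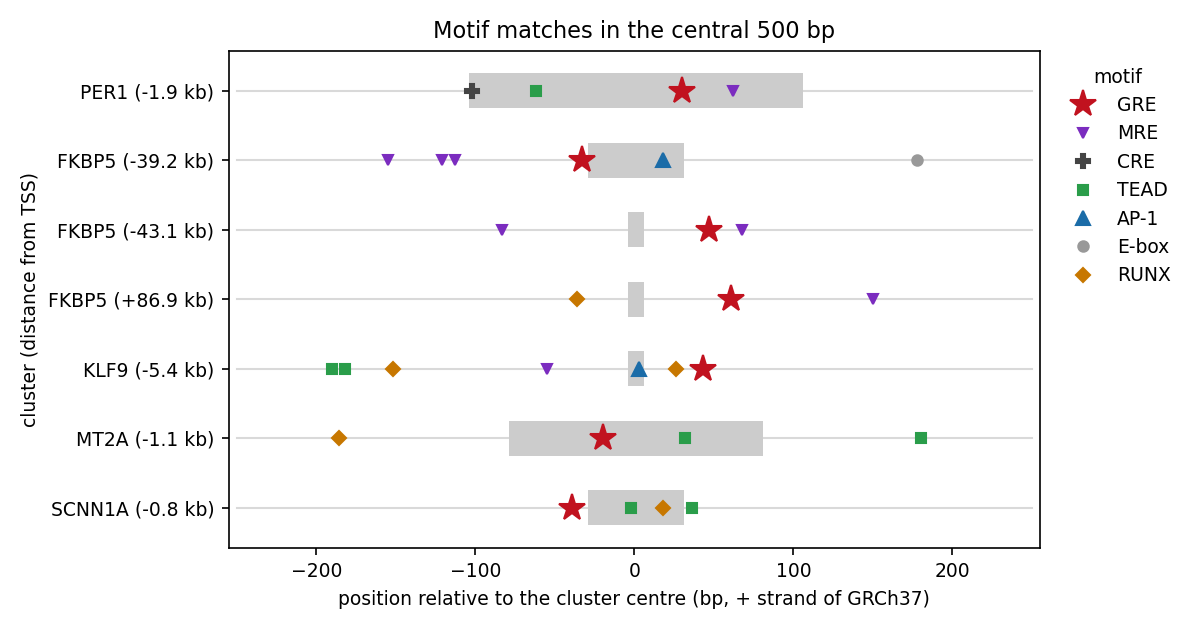
Positions of motif matches (symbols) relative to the centre of each of the 7 clusters, in bp, with the deposited cluster as a grey bar and 1 row per cluster. Every row has a GRE match (red star) within 61 bp of the centre, whereas the other motifs are in some rows only.

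The sites differed in how close they came to the full palindrome, AGAACA and TGTTCT around any 3 bases, which has 12 fixed letters. The FKBP5 cluster downstream of the TSS had AGAACACCCTGTTCT, with 12 of 12 letters. PER1 (GGAACATCATGTTCT) and SCNN1A (AGGACATTCTGTTCT) had 11. KLF9 (GGAACAGTTTGTCCT), MT2A (AGGACAGCCTGTCCT) and the farther upstream cluster of FKBP5 (AGAACATCCTGTGCC) had 10, and the nearer one of FKBP5 (GGAACACAATGTCCC) had 9. Across whole lists a best site of at least 10 letters was found at 50 of 490 clusters (10.2%) for the MCF10A-named parental cells and at 62 of 651 (9.52%) for the MCFDCIS-named ones, and the median best site had 8 letters in both. At least 9 letters, as at the nearer upstream FKBP5 cluster, were common, at 153 of 490 (31.2%) and 215 of 651 (33.0%) in the same order. A site of all 12 letters was in 5 of 651 MCFDCIS-named parental clusters and in 2 of 99 D4 clusters, and the FKBP5 cluster is in both counts. These are matches of letters, and binding of the receptor was not measured.

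**Figure D2:**
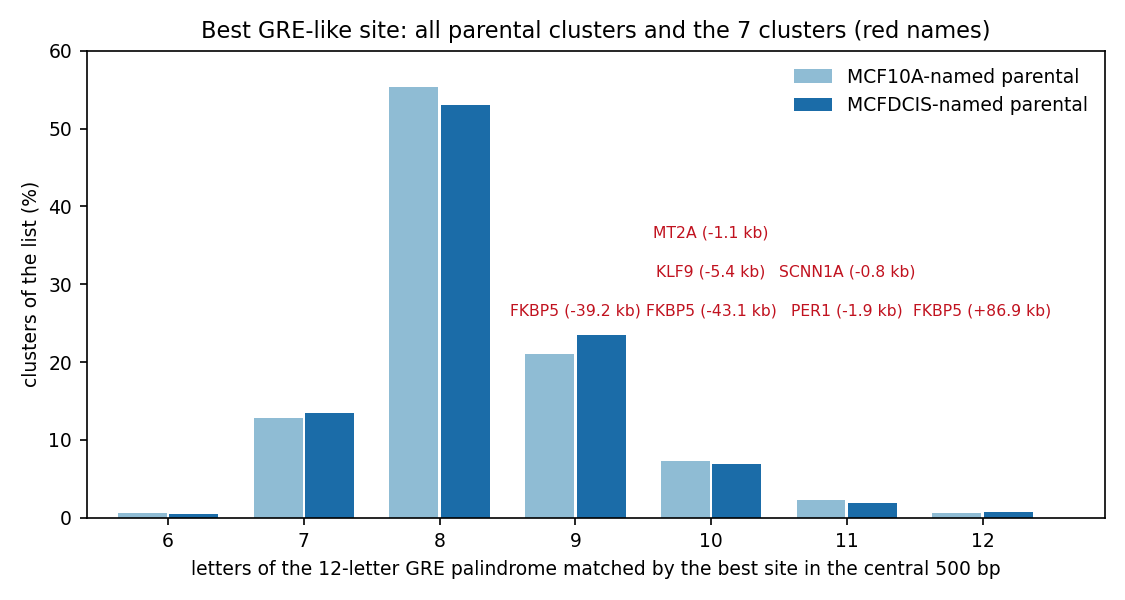
Share of clusters (%) in the 2 parental lists by the number of GRE palindrome letters, of 12, in the best site of the central 500 bp (bars), with the names of the 7 clusters in red above their own number and no meaning to the height of a name. The largest bars are at 8 letters, and the 7 clusters stand at 9 to 12.

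Other motifs were found in some of the 7. The AP-1 site was in 2 of 7, the nearer upstream FKBP5 cluster and KLF9, beside 27.6% and 28.6% of all MCF10A-named and MCFDCIS-named parental clusters. The TEAD site GGAATG was in 4 of 7, beside 38.8% and 37.2%, and the RUNX site TGTGGT in 4 of 7, beside 35.9% and 36.7%. The cAMP response element TGACGTCA was in 1 of 7, at the left edge of the PER1 cluster, beside 1.43% and 1.69% of all parental clusters. The E-box CACGTG was also in 1 of 7, the nearer upstream FKBP5 cluster, beside 6.73% and 7.68%. The metal response element (TGCGCNC or TGCACNC), the site of the factor that drives metallothionein genes, was in 5 of 7, beside 33.1% and 31.5%. MT2A and SCNN1A were the clusters without it. All motifs were sought on both strands, and with 7 clusters these shares differ from the lists' by too few clusters to be read as differences.

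At the metallothionein locus the metal response element was sought around the cluster and in the promoters of MT2A and MT1X. In the RefSeq promoter of MT2A, 250 bases before to 50 after its start, 8 matches were found, and in that of MT1X 4 were found. Promoters with at least 8 matches made up 0.0199% of all 35116, and those with at least 4 made up 0.601%. The AIB1 cluster lay upstream of that MT2A window and held a GRE match and none for the metal response element. Of the 6 members 5 had a promoter in the RefSeq table, and 0 of these 5 had the GRE consensus in the window, which says nothing of the receptor beyond these letters and this window.

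PER1 had the highest ranked of the 7 clusters. Its cluster, chr17:8057651-8057860, was 210 bp wide and lay 1.93 kb upstream of the canonical TSS (minus strand). By the authors' score, which the files do not define, it ranked 4 of 490 in the MCF10A-named parental list (score 86.6) and 1 of 651 in the MCFDCIS-named parental list (191.5). In the MCFDCIS-named D4 list the same coordinates ranked 78 of 99 (8.10), and in the MCF10A-named D4 list the region was not listed. PER1 was thus among the first in both parental lists and in the lowest 25% of the one D4 list that held it. Among the 307 clusters that both parental lists held it had the best mean rank.

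FKBP5 had 3 clusters, all narrow. The nearer upstream cluster, chr6:35695901-35695960, was 60 bp wide and 39.2 kb from the canonical TSS (minus strand). It ranked 84 of 490 in the MCF10A-named parental list and 40 of 651 in the MCFDCIS-named one, and neither D4 list held it. The farther upstream cluster, chr6:35699751-35699760, was 10 bp wide and 43.1 kb away. It ranked 429 of 490 and 117 of 651 in the same order, so it was near the bottom of one parental list and in the top 25% of the other. Neither D4 list held it.

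The third FKBP5 cluster, chr6:35569801-35569810, lay 86.9 kb downstream of the canonical TSS, in intron 5. It was in both MCFDCIS-named lists, ranking 103 of 651 in the parental list and 38 of 99 in the D4 list (a score shared by 4 clusters), and in neither MCF10A-named list. FKBP5 was therefore near a cluster in 3 of the 4 lists, but the upstream clusters were in the parental lists only and the cluster in intron 5 was the one in the D4 list.

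KLF9 had 1 cluster, chr9:73035001-73035010, 10 bp wide and 5.43 kb upstream of its TSS. It ranked 127 of 490 and 217 of 651 in the MCF10A-named and MCFDCIS-named parental lists, the lowest place among the 5 loci when each is taken by its best cluster, in both lists. Neither D4 list held it.

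The metallothionein cluster, chr16:56641201-56641360, was 160 bp wide, 1.14 kb upstream of MT2A and 75.02 kb upstream of MT1X. Its rank was 26 of 490 (MCF10A-named parental list) and 161 of 651 (MCFDCIS-named parental list). MT2A was the nearest gene, and the cluster lay within a family of 11 metallothionein genes, all within 200 kb of it, so the distance alone does not say which of them it belongs to. Neither D4 list held it.

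The SCNN1A cluster, chr12:6485501-6485560, was 60 bp wide and 0.772 kb upstream of the canonical TSS (minus strand), the shortest distance of the 7. Its rank was 18 of 490 (MCF10A-named parental list) and 138 of 651 (MCFDCIS-named parental list), and neither D4 list held it.

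Ranks are set side by side in the plot of score rank by list. Within the 307 clusters common to the parental lists, where both ranks are over the same regions, MT2A was 25th by MCF10A-named score and 118th by MCFDCIS-named score, and SCNN1A 18th and 103rd. PER1 was 4th and 1st, KLF9 113th and 148th, the nearer upstream FKBP5 cluster 78th and 38th, and the farther one 278th and 90th. PER1 and the FKBP5 clusters thus stood higher in the MCFDCIS-named list and KLF9, MT2A and SCNN1A higher in the MCF10A-named list. Without replicate values it is not known whether these shifts exceed the spread between samples.

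**Figure D3:**
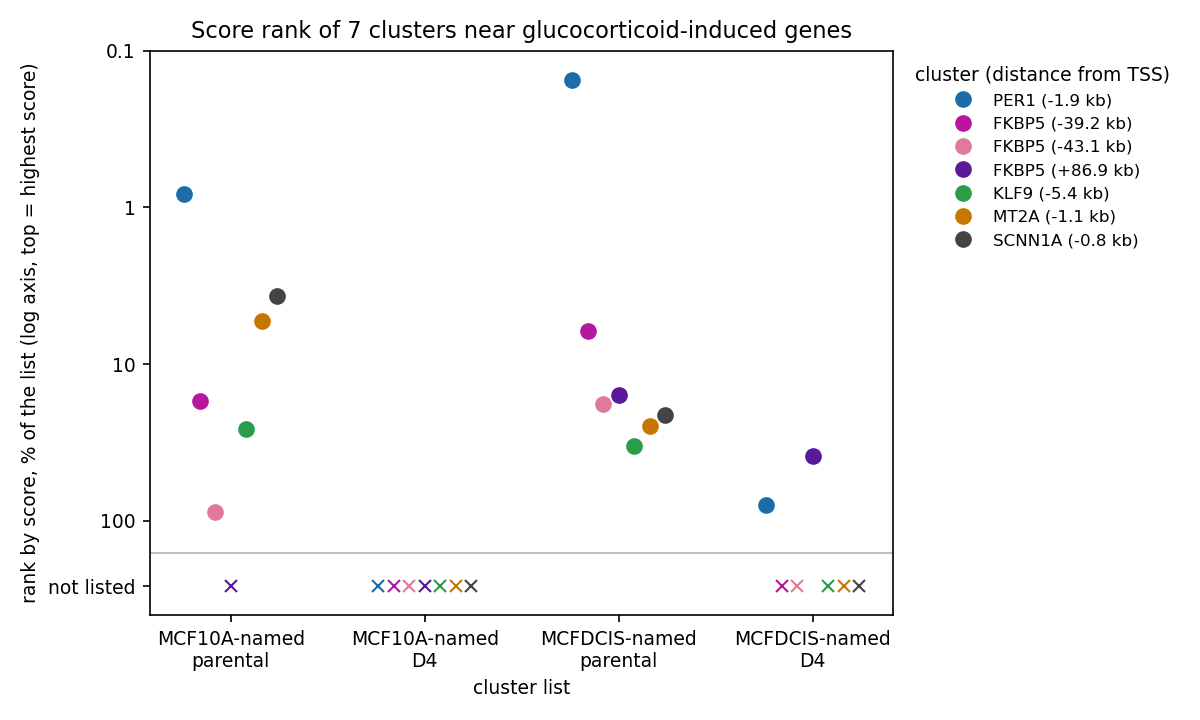
Rank of each of the 7 clusters by the authors' score, as a percentage of its list on a log axis with the highest scores at the top, for the 4 lists. Crosses below the line mark clusters that a list does not hold, which are 1 and 7 of the 7 for MCF10A-named parental and D4 cells and 0 and 5 for MCFDCIS-named ones.

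The distance of a cluster depended on which start of a gene was taken. The nearer upstream FKBP5 cluster, 39.2 kb from the canonical TSS, was 0.40 kb downstream of another annotated FKBP5 start and lay in intron 1 of that protein-coding transcript, 1 of 4 annotated for the gene. The farther one was 3.39 kb upstream of the same start. By canonical starts alone, both were nearer to ARMC12, an armadillo repeat gene, at 8.85 and 5.05 kb. The PER1 cluster lay in intron 1 of 4 longer PER1 transcripts, of 19 annotated, and the SCNN1A cluster was 0.307 kb from the nearest of 20 annotated SCNN1A starts. KLF9 and MT2A kept the same distance.

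The member was the gene with the nearest canonical TSS for 5 of the 7 clusters, the exceptions being the upstream FKBP5 clusters. The surroundings differed in gene density. Within 200 kb of the KLF9 cluster lay 2 protein-coding starts, whereas the PER1 and MT2A clusters each had 17, the SCNN1A cluster 13 and the FKBP5 clusters 7 to 9. The next gene after PER1 was VAMP2 at 8.41 kb, after SCNN1A it was LTBR at 7.77 kb, and after KLF9 it was SMC5 at 161.1 kb.

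**Figure D4:**
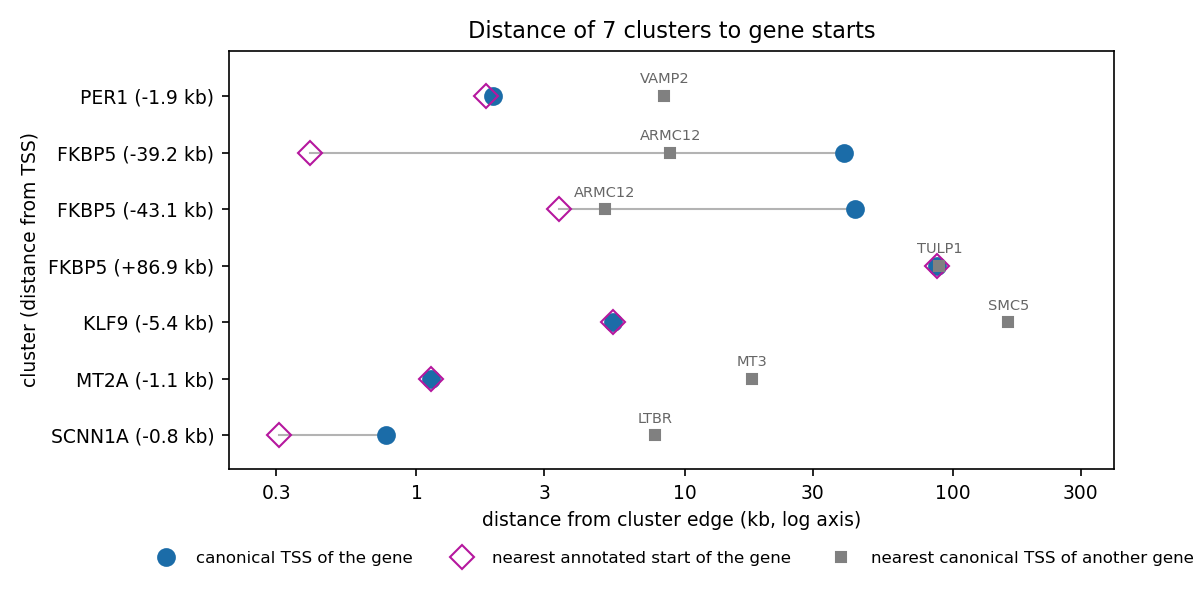
Distance in kb (log axis) from each of the 7 clusters to the canonical TSS of the member gene (blue circle), to the nearest annotated start of any of its transcripts (open diamond) and to the nearest canonical TSS of another named gene (grey square, with its name). For the upstream FKBP5 clusters the diamond is far to the left of the circle, at 0.40 and 3.39 kb.

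No cluster lay near the limit of 200 kb. The farthest inside was the FKBP5 intron 5 cluster at 86.9 kb, and the nearest outside in any list was 6357 kb from FKBP5. Apart from the FKBP5 clusters, each of the 7 was therefore the only cluster of its surroundings. Their central 200 bp had 0 other copies in GRCh37 at an identity of 90% or more over at least 90 bp, MT2A included, although metallothionein genes resemble each other. The GC content of the central 500 bp was 71.2% and 72.6% at the upstream FKBP5 clusters, 63.6% at PER1, 63.0% at KLF9, 60.2% at SCNN1A, 56.8% at MT2A and 39.4% in FKBP5 intron 5. The medians of the parental lists were 47.8% (MCF10A-named) and 47.0% (MCFDCIS-named), so 6 of the 7 were above both and the intron 5 cluster below.

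Parental and D4 lists differed at these loci. In each parental list 5 of 5 loci had a cluster within 200 kb, whereas in the MCF10A-named D4 list 0 did and in the MCFDCIS-named D4 list 2 did, PER1 and FKBP5. Over all protein-coding genes the share with a cluster within 200 kb was 7.46% (MCF10A-named) and 10.7% (MCFDCIS-named) for parental lists and 1.98% and 2.53%, in the same order, for D4 lists. The rule used these positions, so nothing is read from the members' counts against these shares.

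Few parental clusters of any kind were in a D4 list, and the members' absence has to be read beside that. Of all MCF10A-named parental clusters 67 of 490 (13.7%, exact 95% interval 10.8 to 17.0) were in the D4 list of the same name, and of those in the top 25% by score 11 of 122 (9.02%, 4.59 to 15.6). Of the 6 near members 0 were. Of all MCFDCIS-named parental clusters 65 of 651 (9.98%, 7.79 to 12.5) were in the D4 list, and within the top 25% by score 23 of 163 (14.1%, 9.16 to 20.4). Of the 7 near members 2 were. Among the first 5 of the MCFDCIS-named parental list 3 were in the D4 list, PER1 among them, and among the first 5 of the MCF10A-named list 1 was.

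The 2 clusters kept in the MCFDCIS-named D4 list had the same start and end as in the parental list. Among the 65 clusters common to that pair, PER1 was first by parental score and 58th by D4 score, and FKBP5 intron 5 was 19th and 33rd. In the MCFDCIS-named pair the 2 kept clusters had 11 and 12 of the 12 palindrome letters, but SCNN1A, also with 11, was not kept.

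Genes connected with glucocorticoid action were counted in 7 groups, 69 genes in all, chosen with earlier results of these data known. A cluster lay within 200 kb of 27 of 69 in the MCF10A-named parental list and of 28 of 69 in the MCFDCIS-named one, beside the 7.46% and 10.7% of all genes given above. In the D4 lists the counts were 1 and 3 of 69, beside 1.98% and 2.53%. The 11 metallothionein genes share 1 cluster and the members were chosen for having one. Without both, 12 of 54 genes (22.2%) and 13 of 54 (24.1%) had a cluster in the parental lists and 1 of 54 (1.85%) in each D4 list.

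Among the receptor and its handling genes, NR3C1, which encodes the glucocorticoid receptor, had a cluster 1.10 kb upstream of its TSS in the MCFDCIS-named parental list, ranking 463 of 651, and none within 200 kb in the other 3 lists. The HSP90 genes HSP90AA1 and HSP90AB1 had one in both parental lists, at 193.0 and 188.3 kb. Of the group's 10 genes 3 and 4 had a cluster in the MCF10A-named and MCFDCIS-named parental lists. Without FKBP5, chosen for having one, 2 and 3 of 9 did (22.2% and 33.3%), beside 7.46% and 10.7% of all genes. No group was tested, and each holds few genes.

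Among induced signalling and anti-inflammatory genes 3 and 2 of 10 had one (30% and 20%), beside 7.46% and 10.7% of all genes. DUSP1, a MAP kinase phosphatase, had a cluster at 4.45 kb in the MCF10A-named parental list (rank 395 of 490) and its nearest at 129.0 kb in the MCFDCIS-named one. ERRFI1, an inhibitor of the EGF receptor, had the same cluster at 44.8 kb in both. Of the induced transcription factors 3 of 10 had one in both parental lists, PER1, KLF9 and ZBTB16, the last at 94.9 kb. Without PER1 and KLF9, chosen for having a cluster, this was 1 of 8 (12.5%) in each, near the 7.46% and 10.7% of all genes.

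Of the induced metabolic genes 2 of 10 (20%) had one in both parental lists, beside 7.46% and 10.7% of all genes. ANGPTL4, an inhibitor of lipoprotein lipase, had a cluster at 8.28 kb, ranking 150 of 490 and 344 of 651. DDIT4, an inhibitor of mTOR signalling, lay in a stretch rich in clusters, with 13 and 17 within 200 kb in the parental lists. Its nearest cluster lay 2.87 kb upstream of the TSS in the MCF10A-named parental list (rank 337 of 490). In the MCFDCIS-named parental list a cluster covered the TSS (rank 201 of 651). DDIT4 was the one gene of the 69 besides PER1 and FKBP5 with a cluster in a D4 list. There the nearest lay farther off, at 35.9 kb in the MCF10A-named D4 list and 53.5 kb in the MCFDCIS-named one.

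Of the sodium transport genes 4 of 6 had one in both parental lists, and 3 of 5 without SCNN1A, beside 7.46% and 10.7% of all genes. SCNN1B and SCNN1G, the partners of SCNN1A in the channel, share a single cluster, 43.8 kb from SCNN1B and 75.7 kb from SCNN1G, ranking 49 of 490 and 245 of 651. Of the clock genes 2 and 3 of 12 had one, and without PER1 1 and 2 of 11 (9.09% and 18.2%), beside the same 7.46% and 10.7%. Besides PER1 these were BHLHE40, a repressor of clock transcription, at 7.58 kb in both parental lists (rank 96 of 490 and 123 of 651), and DBP, an output factor of the clock, at 2.53 kb in the MCFDCIS-named parental list (rank 400 of 651). PER2, PER3, CRY1 and CRY2, named here after their values were seen, had none in any list.

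**Figure D5:**
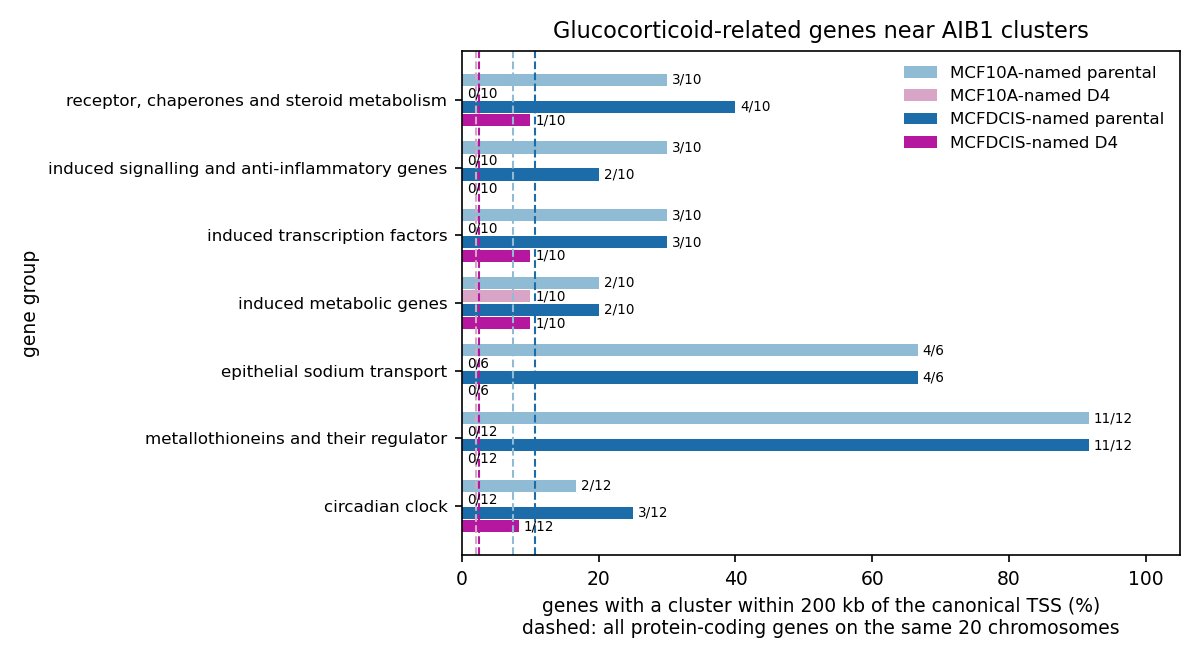
Share of genes (%) with a cluster within 200 kb of the canonical TSS, by group of glucocorticoid-related genes and list, with counts at the bar ends and dashed lines for all protein-coding genes in the same list. The metallothionein bars (11 of 12 genes in both parental lists) rest on 1 shared cluster, and most D4 bars are at 0.

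Other genes were sought by the pattern of the members, so that they have it was fixed by the search and is no result. Protein-coding genes were sought whose nearest cluster lay within 10 kb of the canonical TSS and held the GRE consensus in both parental lists, and they were ordered by mean rank over those 2 lists. The rule found 16 of 18864 genes, at 13 clusters, among them PER1, SCNN1A, MT2A and KLF9. Within 10 kb 0.62% of all genes had a cluster by the MCF10A-named parental list and 0.938% by the MCFDCIS-named one. These shares are for each list by itself and for clusters with or without a GRE. Of the other 12 genes the first 8 were VAMP2 and an unnamed gene model (both at the PER1 cluster), ELOB, TAF8, LTBR (at the SCNN1A cluster), TNS4, IRX2 and ANGPTL4. ARMC12, lower in the order, was at the farther upstream FKBP5 cluster.

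ELOB, a subunit of the elongin complex, had its cluster at 7.27 kb, ranking 10 of 490 and 67 of 651, and the MCFDCIS-named D4 list held it too, as it did that of PER1. TAF8, a subunit of the general transcription factor TFIID, had one at 4.60 kb (rank 14 of 490 and 75 of 651) and TNS4, a focal adhesion protein gene, at 8.73 kb (12 of 490 and 154 of 651). IRX2, a homeobox gene, had one at 6.41 kb (150 of 490 and 247 of 651). The clusters of TAF8, TNS4, IRX2 and ANGPTL4 were in neither D4 list, as those of KLF9, MT2A and SCNN1A were not.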

How the data were processed

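Chromatin bound by AIB1 was sequenced in 4 groups of 3 ChIP samples, and 1 list of regions per group was used. The series' design text says that input chromatin served for normalization, and the build is hg19 (GRCh37) per the submitters' processing notes. No aligner, caller or threshold is named in the labels or files. The authors' score of each cluster, as deposited, was used only to rank clusters within a list.

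Distances run from the cluster edge to the canonical TSS of GENCODE release 44 lifted to GRCh37 (for genes without one, the longest coding transcript). Motifs were sought in the central 500 bp. Copies were sought with BLAST+ 2.17.0, and Python 3.11.15, pandas 2.3.3, SciPy 1.17.1 and matplotlib 3.10.9 were used. Intervals are exact (Clopper-Pearson) 95% intervals over clusters and cover counting error only. No test was made, since each group has 1 list. Scans were tested on simulated data and recovered 200 of 200 planted matches per motif.

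The members and lists were chosen with earlier results of these data known. Named genes were the 6 members, those of 69 glucocorticoid-related genes that had a cluster within 200 kb (values mainly for those within 50 kb) and up to 8 other genes with a GRE-holding cluster within 10 kb in both parental lists. The values of 1 gene among the 69 are not reported here.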

Additional observations from a re-analysis of the deposited data

How the results depend on the processing

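Loci were counted under 5 settings (windows of 100, 50 and 25 kb, any annotated start, and clusters at or above the median score). Presence at the 5 loci in both parental lists held under each, except that FKBP5 drops out at 25 kb and leaves 4 loci. Absence from the MCF10A-named D4 list also held under each, but narrower windows and the score filter only remove clusters and could not have changed it. The cluster of that list nearest to any member's canonical TSS lay 6549 kb away (KLF9). In the MCFDCIS-named D4 list 1 locus with 1 cluster was left, in place of 2, with windows of 50 or 25 kb (PER1) or clusters at or above the median score (FKBP5), and 1 cluster was left without clusters of 10 bp (PER1). In the MCFDCIS-named parental list 4 clusters, in place of 7, were left at 25 kb or without clusters of 10 bp. In the MCF10A-named parental list 4, in place of 6, were left under the same settings. The only KLF9 cluster is 10 bp wide, so without clusters of 10 bp KLF9 had none in either parental list. The counts of glucocorticoid-related genes fell to 17, 18 and 1 at 50 kb (MCF10A-named parental, MCFDCIS-named parental and MCFDCIS-named D4) and to 10, 11 and 1 at 25 kb, where the MCF10A-named D4 count was 0. They were 17 and 18 in the parental lists with the metallothionein locus counted once, a setting added after the data were seen. A narrower window can only lower these counts. The GRE count stayed at 7 of 7 with the central 200 or 1000 bp, with the looser core ACANNNTGT and within 100 kb. None of these settings could lower it. Every match lay within 61 bp of the cluster centre, the wider window and the core contain every match, and all 7 clusters lay within 86.9 kb. The core was in 22.4% and 22.9% of all MCF10A-named and MCFDCIS-named parental clusters. The count was 6 of 7 for at least 10 palindrome letters, also added later. No paired analysis was possible because each group has a single list without values per replicate, and for the same reason no replicate could be left out. Depth is unknown, so no limit that it sets on these counts can be given.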

Other observations

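GRE-holding clusters stood high in the parental lists. In the MCF10A-named parental list 33 of 122 clusters of the top 25% by score (27.0%, exact 95% interval 19.4 to 35.8) held the GRE consensus, and 4 of 115 of the lowest 25% did (3.48%, 0.956 to 8.67). In the MCFDCIS-named parental list the counts were 32 of 163 (19.6%, 13.8 to 26.6) and 6 of 163 (3.68%, 1.36 to 7.84). In both lists these intervals did not overlap, but they cover counting error only, and clusters of 1 list are not replicates. The 2 parental lists share 307 clusters, so they are not independent of each other. In the MCFDCIS-named D4 list 1 of 24 clusters of the top 25% (4.17%, 0.105 to 21.1) and 2 of 23 of the lowest (8.70%, 1.07 to 28.0) held it, intervals that overlap widely. In the MCF10A-named D4 list 1 of 52 clusters of the top 25% and 0 of 33 of the lowest held it.

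GRE-holding parental clusters that were also in the D4 list were counted under each line name. Under the MCF10A name 1 of 49 was (2.04%, 0.0517 to 10.9), beside 66 of 441 clusters without a GRE (15.0%, 11.8 to 18.6). Under the MCFDCIS name 8 of 58 were (13.8%, 6.15 to 25.4), beside 57 of 593 without one (9.61%, 7.36 to 12.3). PER1 and the FKBP5 cluster of intron 5 are 2 of these 8. Under the MCF10A name the intervals with and without a GRE did not overlap, and under the MCFDCIS name they did. They cover counting error only. GRE-holding clusters were frequent in the top 25% by score, of which 11 of 122 (9.02%) were in the D4 list under the MCF10A name. A part of score rank in this was not tested. The intervals of the 2 line names for GRE-holding clusters overlap, and the difference between line names was not tested. These counts were made after the GRE matches of the members had been seen.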
